A study of Rattus norvegicus with 6 samples.

Results

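Aminoacyl-tRNA synthetases are the enzymes that attach each amino acid to its tRNA. Their mRNAs were examined by RNA sequencing in tendon stem/progenitor cells of the rat, which live in tendon and can form new tendon cells. Members were taken by gene name: 36 names out of 33300 genes in the deposited table. Of these, 16 with names ending in 2 stand for mitochondrial enzymes. The other 20 stand for mostly cytosolic enzymes or their subunits and are called cytosolic below. All 36 names had a row, and Ears2 had a second row, a pseudogene copy, so that 37 rows were found. The NAC group (3 libraries) was cultured for 7 days in F12 medium with 500 uM N-acetyl-L-cysteine, a thiol antioxidant and cysteine donor, and the Control group (3 libraries) for the same 7 days in F12 medium without it. The labels of both groups further give tendon as the tissue, mesenchymal stem cells as the cell line and tenogenic differentiation in the genotype field. Whether replicates were separate cultures or animals is not said, so p-values measure the spread between these samples, which may be technical.

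Each synthetase recognises its own amino acid and tRNA, uses ATP to activate the amino acid and transfers it to the tRNA end. The enzymes fall into class I and class II by the fold of their catalytic domain. Vertebrate mitochondria translate their own few mRNAs with a mostly, but not fully, separate set of synthetases, which are also encoded in the nucleus and imported. Several cytosolic synthetases sit with scaffold proteins in the multi-tRNA synthetase complex. When charged tRNA runs short, the kinase GCN2 slows translation and raises the transcription factor ATF4, and many cytosolic synthetase genes are known targets of ATF4 in mouse fibroblasts. Tendon cells make large amounts of collagen, whose repeats are rich in glycine and proline.

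Libraries held 13624097 to 14941949 reads in NAC and 12487215 to 14079556 reads in Control, recovered from the deposited FPKM values (reads scaled to gene length and sequencing depth). At the median gene length of the members, 2433 bases, 1 read was worth 0.0280 to 0.0326 FPKM in a library. Precision from read numbers covers counting error only. All 10 tendon markers looked at had a mean of at least 1 FPKM, with summed levels of 14823 to 15702 FPKM in NAC and 10117 to 10372 FPKM in Control. Dcn was the highest of them (mean 5055 FPKM over the 6 libraries). The sum does not show the levels of single members such as Scx, Mkx and Tnmd. The leukocyte genes Ptprc and Tyrobp and the endothelial genes Cdh5 and Emcn had no reads in any library. Other members of these lists had reads, the highest being Cd14 (leukocyte, mean 14.7 FPKM over the 6 libraries) and Kdr (endothelial, 0.321 FPKM). The highest members of further lists were S100b (Schwann, 49.5 FPKM), Cspg4 (pericyte, 19.8 FPKM) and Sox9 (cartilage, 9.16 FPKM). Summed levels of the leukocyte, endothelial, pericyte, Schwann and cartilage lists overlapped between the groups, that of the epithelial list was at most 0.101 FPKM in any library, and that of the muscle list was 7.28 to 8.39 FPKM in NAC and 6.69 to 7.13 FPKM in Control. The part of these marker levels in the results below was not tested.

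Across the cytosolic synthetases, levels (mean FPKM over the 6 libraries, SD over the same 6) spanned 51.7 ± 1.29 for Gars to 8.20 ± 0.726 for Iars. Gars, which charges glycine, Sars (serine, 51.0 ± 1.16 FPKM) and Nars (asparagine, 50.4 ± 4.78 FPKM) stood first, and each overlapped the next in its range over libraries. Eprs (45.7 ± 3.00 FPKM), 1 protein that charges both glutamate and proline, Aars (alanine, 43.7 ± 3.87 FPKM), Qars (glutamine, 42.4 ± 1.152 FPKM) and Kars (lysine, 40.1 ± 1.504 FPKM) followed in the same overlapping run. A gap without overlap separated Kars from Mars (methionine, 32.2 ± 1.73 FPKM). From Mars down to Lars (leucine, 20.3 ± 0.629 FPKM) neighbours overlapped again, in the order Hars (histidine), Farsa (the alpha subunit for phenylalanine), Rars (arginine), Dars (aspartate), Tars (threonine) and Vars (valine). The lowest group held Yars (tyrosine, 16.2 ± 1.14 FPKM), Farsb (the beta subunit for phenylalanine), Cars (cysteine) and Wars (tryptophan, 13.2 ± 1.40 FPKM), and Iars (isoleucine) lay below all of them in every library. Farsa was 1.66 ± 0.0841 times as high as Farsb in NAC and 1.79 ± 0.0410 times in Control (SD, n = 3 each), although the enzyme is built from both subunits.

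The mitochondrial synthetases were lower. Iars2 (20.0 ± 1.12 FPKM over the 6 libraries) and Tars2 (12.1 ± 1.68 FPKM) each stood apart from the next gene in every library. Hars2 (7.17 ± 0.727 FPKM), Cars2, Lars2, Fars2 and Vars2 (5.33 ± 0.360 FPKM) formed an overlapping run. A second run went from Aars2 (4.51 ± 0.263 FPKM) through Yars2, Rars2, Nars2, Wars2, Sars2 and Ears2 to Pars2 (2.11 ± 0.314 FPKM). Mars2 was close to the limit of counting, with 2, 6 and 4 reads in NAC libraries 1 to 3 and 6, 8 and 4 reads in Control libraries 1 to 3. Its mean of 0.212 FPKM was below the minimum of 1 FPKM for testing, and its groups overlapped. The pseudogene row of Ears2 held 28, 20 and 24 reads in NAC and 26, 27 and 29 reads in Control, against 63, 64 and 56 reads in NAC and 63, 51 and 78 reads in Control for the gene itself, and reads shared between the copies could have been split.

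**Figure D1:**
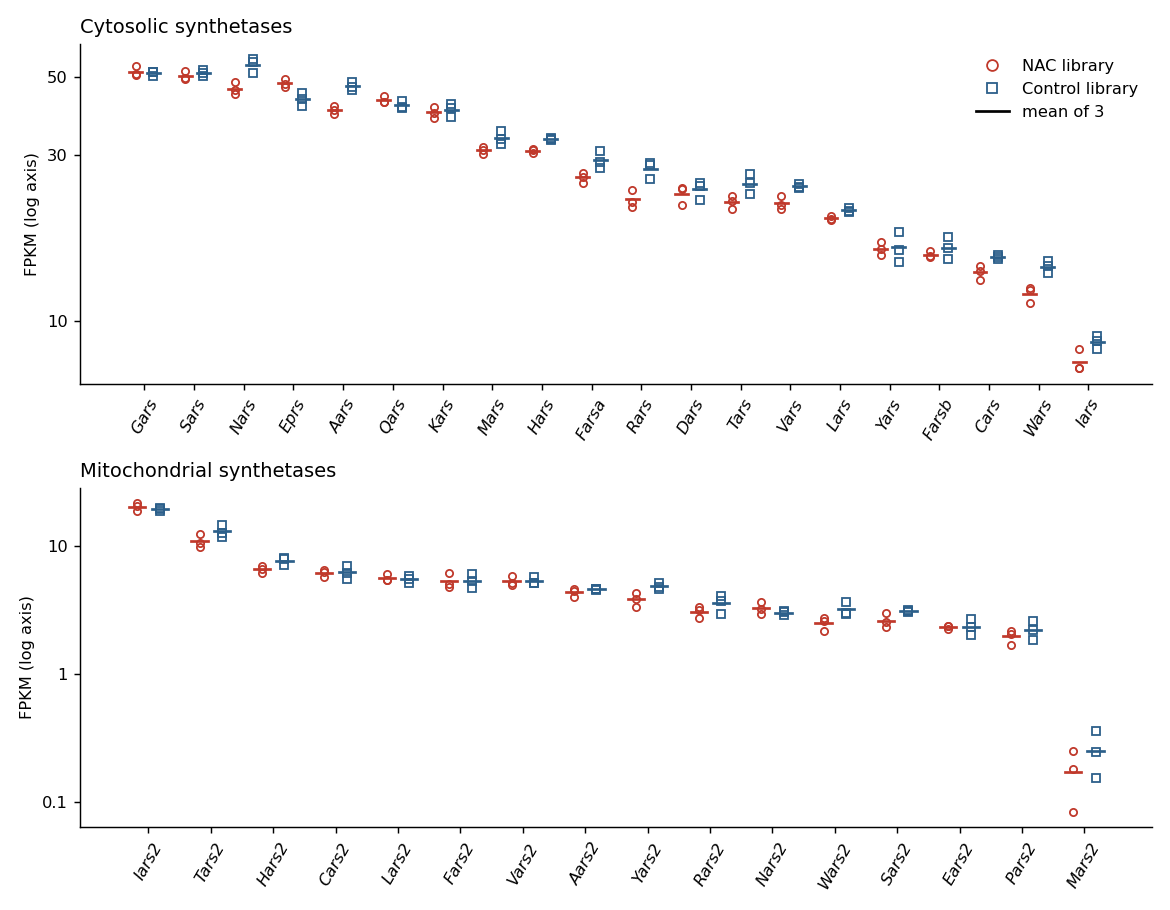
Level of each synthetase in FPKM on a log axis, for cytosolic (top) and mitochondrial (bottom) enzymes ordered by mean level; open circles are the 3 NAC libraries, open squares the 3 Control libraries and bars the mean of 3. Gars, Sars and Nars lie near 50 FPKM, Iars is the lowest cytosolic gene at 8.20 FPKM, and Mars2 lies far below the other mitochondrial genes at 0.212 FPKM.

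In 14 pairs a cytosolic gene was set beside the mitochondrial gene for the same amino acid, with Farsa standing for the cytosolic phenylalanine enzyme. Eprs, whose mitochondrial counterparts are Ears2 and Pars2 together, was left out of the pairs. Dars, Gars, Kars and Qars had no partner among the 36 names and were not paired. In 13 of the 14 pairs the cytosolic gene was the higher one in all 6 libraries, and the median ratio of mean FPKM over the pairs was 4.53. The smallest of these 13 ratios was that of Tars over Tars2 (1.93), and the largest that of Mars over Mars2 (152, on 2 to 8 reads of Mars2 a library). Isoleucine was the exception. Iars had 7.33, 7.33 and 8.34 FPKM in NAC and 8.79, 9.06 and 8.36 FPKM in Control. Iars2 had 20.7, 21.8 and 18.9 FPKM in NAC and 19.6, 20.0 and 19.0 FPKM in Control. The mitochondrial gene was thus higher in every library, with an Iars over Iars2 ratio between 0.336 and 0.453. Iars rested on 571 to 703 reads a library and Iars2 on 747 to 931. The microRNA genes Mir194-1 and Mir215 are annotated inside Iars2 on the opposite strand.

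**Figure D2:**
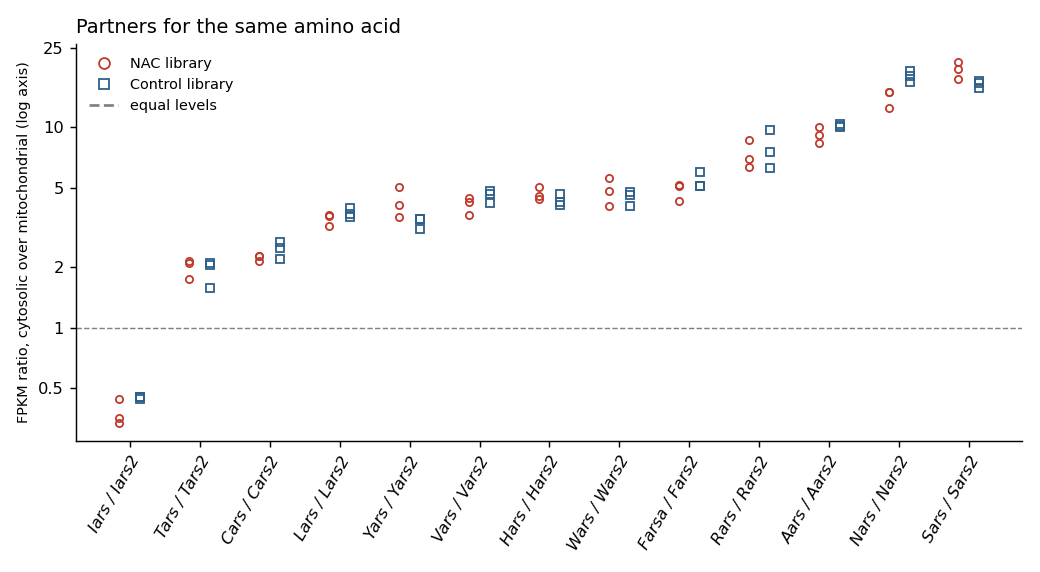
Ratio of cytosolic to mitochondrial FPKM within a library, on a log axis, for 13 amino acids ordered by the ratio of means; open circles are the 3 NAC libraries, open squares the 3 Control libraries, and the dashed line marks equal levels. Iars over Iars2 is the only pair below the line, in all 6 libraries; the methionine pair is left out because Mars2 had 2 to 8 reads a library.

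NAC was then set against Control, to ask how the levels of the charging enzymes differed after 7 days with the antioxidant. Calls were made by limma on log2(FPKM + 1) at an adjusted p under 0.05 over 12733 genes. Aars, Rars and Nars were called lower in NAC, and none of the 20 cytosolic genes was called higher. None of the 15 mitochondrial genes tested was called in either direction. The 3 of 20 called lower compare with 2.72% of all tested genes called lower, and the 0 of 20 called higher with 6.08% called higher. In these bulk libraries fewer cells of a type and less RNA per cell cannot be told apart. Below 0 lay 17 of the 20 cytosolic differences (15 to 20 under the alternative settings tried), beside 51.5% of all tested genes. In 12 of the 20 genes all 3 NAC values lay below all 3 Control values, beside 15.9% of all tested genes, and in 1, Eprs, all lay above, beside 16.7%. An unadjusted p under 0.05 was reached by 11 lower and 1 higher gene, beside 11.9% and 14.4% of all tested genes. With limma voom on the recovered reads 4 cytosolic genes were called lower, Wars being the added one, and none higher. The median log2 difference of the cytosolic list was -0.11, beside -0.0063 for all tested genes.

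Aars, the alanine enzyme, had 40.2, 41.5 and 39.2 FPKM in NAC and 47.0, 48.4 and 46.0 FPKM in Control. All 3 NAC libraries lay below the lowest Control library, and the level fell by 14.5%. The log2 difference was -0.22 ± 0.0403 (SE, adjusted p = 0.0228, limma). Rars, the arginine enzyme and a member of the multi-synthetase complex, had 21.3, 22.1 and 23.8 FPKM in NAC and 25.6, 28.0 and 28.5 FPKM in Control. The groups did not overlap, and the level fell by 18.2%, a log2 difference of -0.28 ± 0.0618 (SE, adjusted p = 0.0412, limma). Nars, the asparagine enzyme, had 44.8, 45.9 and 48.4 FPKM in NAC and 55.2, 56.3 and 51.5 FPKM in Control. Again the groups were apart, and the level fell by 14.6%, a log2 difference of -0.22 ± 0.0503 (SE, adjusted p = 0.0427, limma). These calls rest on all 6 libraries: leaving out any 1 of them ended those of Rars (adjusted p 0.0511 to 0.127) and Nars (0.0552 to 0.131), and leaving out any except Control 2 ended that of Aars (0.0410 to 0.0846), while all 3 kept their sign. With library totals the log2 differences were -0.39 for Aars, -0.44 for Rars and -0.39 for Nars, where the median of all tested genes moved to -0.16. Over the 16 alternative settings that refit the data, Aars was called in 9, Rars in 8 and Nars in 7. None of the 3 genes overlaps another annotated gene in the deposited coordinates, where Aars lies on chromosome 19 (43193257 to 43215281), Rars on chromosome 10 (20633632 to 20658100) and Nars on chromosome 18 (59986360 to 60002569), all on the minus strand; the build behind these coordinates is not stated.

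Wars, the tryptophan enzyme, came next, with 12.5, 12.3 and 11.3 FPKM in NAC and 13.7, 14.9 and 14.4 FPKM in Control. Its groups were apart, but its log2 difference of -0.24 ± 0.0587 (SE) missed the threshold (adjusted p = 0.0525, limma). Vars had 22.9, 21.0 and 21.5 FPKM in NAC and 24.2, 24.8 and 24.1 FPKM in Control, apart as well (log2 difference -0.16, adjusted p = 0.0887). Iars, Tars, Farsa, Cars, Mars, Hars and Lars had NAC values below all Control values too, with log2 differences between -0.17 and -0.07 and adjusted p between 0.117 and 0.307. Mars, the methionine enzyme, overlaps Ddit3 on the opposite strand, a gene of 27.3 FPKM. No source here states whether counting used strand, so reads from any stretch they share cannot be told apart. The extent of the overlap was not examined. The groups of Farsb, Dars, Kars, Sars, Yars, Gars and Qars overlapped, with log2 differences from -0.06 to 0.04 and adjusted p of at least 0.515.

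Eprs, the enzyme for glutamate and proline, was the only cytosolic gene whose NAC libraries all lay above the Control libraries. It had 47.8, 49.6 and 47.0 FPKM in NAC and 41.5, 45.2 and 43.3 FPKM in Control, on 2777 to 3272 reads a library. The log2 difference of 0.15 ± 0.0451 (SE) was not called (adjusted p = 0.0905, limma), and it was -0.02 when values were rescaled to library totals. Eprs made up 8.27 ± 0.222% of the summed cytosolic FPKM in NAC and 7.01 ± 0.164% in Control (SD, n = 3 each). Multiplying a library by 1 factor does not change this share. The other cytosolic genes summed to 534 ± 4.34 FPKM in NAC and 574 ± 12.3 FPKM in Control with the deposited scaling (SD, n = 3 each). The higher share thus comes in part from their lower sum, and it uses the same Eprs values as above. Gars, for glycine, the other amino acid that collagen uses most, had 51.1, 54.0 and 50.7 FPKM in NAC and 51.9, 51.7 and 50.4 FPKM in Control, which overlapped (adjusted p = 0.835).

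By structure and partners, 1 of 9 class I genes was called lower (Rars) with 8 of 9 below 0 and a median log2 difference of -0.14. Of the class II genes 2 of 10 were called lower (Aars and Nars), with 9 of 10 below 0 and a median of -0.08. Eprs holds a domain of each class and was left out of both. Among the 8 synthetases of the multi-synthetase complex 1 was called lower (Rars), 6 lay below 0 and the median was -0.06. Among the 12 outside it 2 were called lower (Aars and Nars), 11 lay below 0 and the median was -0.15. Over all tested genes 2.72% were called lower, 51.5% lay below 0 and the median was -0.0063. No difference between these lists was tested.

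**Figure D3:**
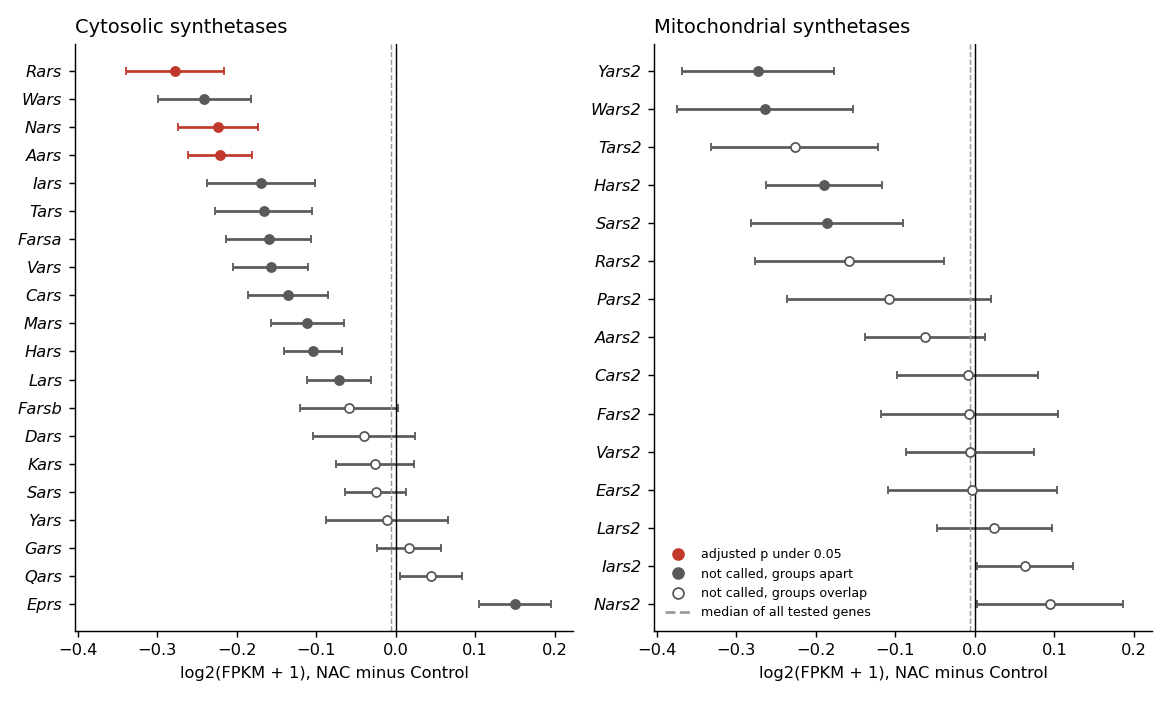
Difference in log2(FPKM + 1), NAC minus Control, with its standard error, for the 20 cytosolic (left) and 15 tested mitochondrial (right) genes; red marks adjusted p under 0.05, filled symbols groups that do not overlap, open symbols groups that do, and the dashed line the median of all 12733 tested genes. Rars, Nars and Aars are the called genes, Eprs alone stands apart above 0, and most genes of both classes lie left of the dashed line.

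Of the 15 mitochondrial genes tested 12 lay below 0 (10 to 15 over the settings with the same 15 genes), beside 51.5% of all tested genes, with a median log2 difference of -0.06. Below the median of all tested genes (-0.0063) lay 10 of the 15, and 9 with library totals or quantile normalization. An unadjusted p under 0.05 was reached by 3 lower genes and no higher one, beside 11.9% and 14.4% of all tested genes. The count of called genes was also 0 with limma voom. In 4 genes all NAC values lay below all Control values, beside 15.9% of all tested genes, and in none did they lie above, beside 16.7%. Yars2, for tyrosine, had 3.91, 4.33 and 3.35 FPKM in NAC and 4.79, 5.18 and 4.62 FPKM in Control (log2 difference -0.27 ± 0.0957 SE, adjusted p = 0.131, limma). It rested on 66 to 106 reads a library. Wars2, for tryptophan, had 2.61, 2.20 and 2.77 FPKM in NAC and 2.97, 3.69 and 3.03 FPKM in Control (adjusted p = 0.189). Sars2, for serine, had 2.54, 2.36 and 3.00 FPKM in NAC and 3.19, 3.06 and 3.11 FPKM in Control (adjusted p = 0.272). Tars2 had a log2 difference of -0.23, with 9.94, 10.7 and 12.6 FPKM in NAC and 14.7, 11.9 and 12.8 FPKM in Control, so that its groups overlapped (adjusted p = 0.229). Hars2 was the fourth, and its values stand with those of Hars below. The remaining 10 genes had overlapping groups, with log2 differences from -0.16 to 0.09 and adjusted p of at least 0.449. Rars2, with 68 to 110 reads a library, overlaps Slc35a1 on the opposite strand. Reads from any stretch they share cannot be told apart, and the extent of the overlap was not examined.

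Summed levels of both classes were lower in NAC. Over its genes, the cytosolic class had 577 to 585 FPKM in NAC and 609 to 634 FPKM in Control, and the mitochondrial class 83.5 to 85.9 FPKM in NAC and 88.7 to 91.0 FPKM in Control. Neither sum overlapped between groups, and their ratio, 6.84 ± 0.0581 in NAC and 6.85 ± 0.136 in Control (SD, n = 3 each), did. In 10 of the 13 pairs in which both partners were tested, both log2 differences were below 0. With 17 of 20 cytosolic and 12 of 15 tested mitochondrial genes below 0, this count does not tell whether partners moved together. Among these pairs are Yars, Cars2, Fars2 and Vars2, whose signs turned when 1 library was left out. These sums depend on how libraries are scaled: the total by which the deposited values had been divided was 0.909 to 0.925 of the recovered reads in NAC and 1.02 to 1.04 of them in Control. With library totals in its place the median of all tested genes moved to -0.16 on the log2 scale and that of the cytosolic list to -0.28. Relative to all tested genes, the cytosolic median was -0.10 with the deposited scaling and -0.12 with library totals.

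Hars and Hars2 lie head to head on chromosome 18, on opposite strands, with 96 bases between them in the deposited coordinates. Hars had 30.3, 31.0 and 31.3 FPKM in NAC and 33.0, 33.2 and 33.5 FPKM in Control. Hars2 had 6.65, 7.02 and 6.22 FPKM in NAC and 7.10, 8.12 and 7.90 FPKM in Control. In both genes the NAC libraries lay below all Control libraries, and neither was called (log2 difference -0.10, adjusted p = 0.128, and -0.19, adjusted p = 0.160). The 300-base RefSeq promoters of both genes share 243 bases of the same stretch, and neither holds a match to any of the 5 motifs searched below. Eprs and Iars2 are also near each other, on chromosome 13 with 36025 bases and 1 gene between them. The differences of both were above 0, but neither was called. Iars2 had overlapping groups (log2 difference 0.06, adjusted p = 0.557, limma), and with library totals both were below 0 (-0.02 for Eprs and -0.10 for Iars2).

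Promoters are shown because ATF4 is a known regulator of cytosolic synthetase genes and binds a short element, the C/EBP-ATF response element (CARE). RefSeq promoters of build GRCr8, 250 bases before to 50 after the start, matched 33 of the 36 members, and Dars, Gars and Rars had no entry. The core letters TGATGNAA were searched on both strands. They occurred in 7 of 17 cytosolic promoters (41.2%), in 0 of 16 mitochondrial promoters and in 1048 of all 27457 promoters (3.82%). The median GC content was 58.0% in cytosolic, 58.2% in mitochondrial and 52.3% in all promoters. All 7 belong to the 11 genes with an entry in the list of synthetases reported as ATF4 targets in mouse fibroblasts, and 0 of the 6 cytosolic genes outside that list had a match. The 7 genes were Aars, Cars, Iars, Mars, Nars, Tars and Yars. The match of each gene except Aars is given on the gene's own strand with up to 10 bases on each side. Capitals mark the core, which stands as its reverse complement where it matched on the other strand.
Cars (chr1:208225335-208225362, minus strand): ggcgccgcggTTGCATCAgattctggaa
Iars (chr17:15193659-15193686, minus strand): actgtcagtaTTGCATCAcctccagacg
Mars (chr7:65023753-65023780, minus strand): cccgttccggTTGCATCAgcgtgggctc
Nars (chr18:60275779-60275806, minus strand): ctaggtgatcTGATGCAAcgcttcagtc
Tars (chr2:62114812-62114839, minus strand): tggcgtcccgTTGCATCAgctggttagc
Yars (chr5:146820191-146820212, plus strand): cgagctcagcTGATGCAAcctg

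Positions of the first core base, counted from 1 at the start base with -1 just before it, were 18 in Cars, -24 in Iars, -17 in Mars, -14 in Nars, -27 in Tars and 39 in Yars. None overlapped a match to another motif searched. Nars was called lower, and its whole promoter follows (chr18:60275733-60276032, minus strand, GRCr8), with the core in capitals.
Nars: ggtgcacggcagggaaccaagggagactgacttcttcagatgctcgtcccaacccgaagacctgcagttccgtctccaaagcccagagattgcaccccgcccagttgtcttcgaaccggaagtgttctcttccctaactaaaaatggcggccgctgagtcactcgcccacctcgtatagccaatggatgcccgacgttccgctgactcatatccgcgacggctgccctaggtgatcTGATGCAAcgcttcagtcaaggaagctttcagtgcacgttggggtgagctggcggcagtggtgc

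Among the 7 genes with the core 2 were called lower, all 7 lay below 0 and the median log2 difference was -0.17. Among the 10 cytosolic genes with an entry and no core none was called, 8 lay below 0 and the median was -0.06. Rars, called lower with a log2 difference of -0.28, had no entry and so stands in neither group. Wars, which has no core, missed the threshold narrowly (adjusted p = 0.0525, limma) and was called lower by voom. Over the ATF4 target list itself 2 of 12 genes were called lower with a median of -0.12, and of the 8 other cytosolic genes 1 was called lower with a median of -0.08. Of all tested genes 2.72% were called lower and 51.5% lay below 0, with a median of -0.0063. None of these differences between lists was tested. An E-box (CACGTG) occurred in 5 of 17 cytosolic and 1 of 16 mitochondrial promoters, beside 6.65% of all promoters. The letters CCAAT occurred in 10 of 17 and 6 of 16, beside 37.7% of all. The consensus of NRF1, a regulator of genes for mitochondria, occurred in 0 of 17 and 1 of 16, beside 0.932% of all, and the core bound by ATF6 and XBP1 (TGACGTGG) in none of either class, beside 0.637% of all. A match describes letters in this window and not a bound site.

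**Figure D4:**
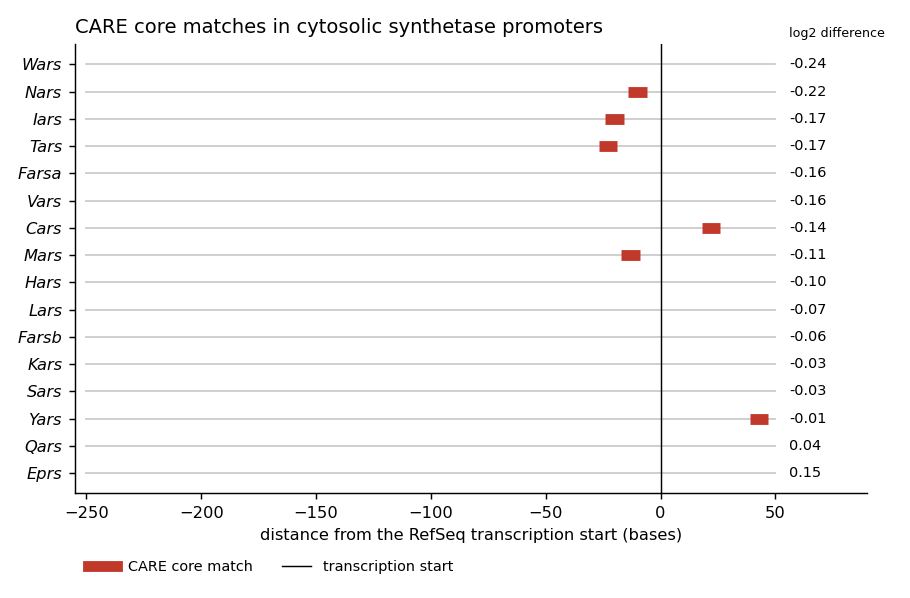
Matches to the CARE core (red) in 16 cytosolic promoters with a RefSeq entry, Aars left out, by distance in bases from the transcription start, genes ordered by their log2 difference, NAC minus Control, printed at the right. Matches begin between 27 bases before and 39 bases after the start; Nars, called lower, has one, and so does Yars, at -0.01.

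The rest of the charging pathway was looked at by lists. Of 8 genes listed as scaffolds and editing proteins none was called by limma, with a median log2 difference of -0.09. Tarsl2 in that list is instead a second gene for a threonine synthetase. At an unadjusted p under 0.05, 3 were lower, beside 11.9% of all tested genes. Voom called 1 lower, Aimp1, beside 4.15% of all tested genes. Aimp1, a scaffold of the multi-synthetase complex, had 14.96, 12.8 and 17.8 FPKM in NAC and 19.9, 24.0 and 19.3 FPKM in Control. Its groups were apart with a log2 difference of -0.45 ± 0.129 (SE, adjusted p = 0.0800, limma). Aimp2, another scaffold, had 14.6, 13.9 and 15.5 FPKM in NAC and 18.4, 20.5 and 16.2 FPKM in Control, also apart (log2 difference -0.30, adjusted p = 0.0884). Eef1e1, the third scaffold, had 5.13, 5.95 and 6.12 FPKM in NAC and 5.24, 5.38 and 5.34 FPKM in Control, which overlapped (adjusted p = 0.510).

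Charged tRNA is carried to the ribosome by elongation factors, and 3 of 8 of these rose in NAC, beside 6.08% of all tested genes called higher, with a list median of 0.07 on the log2 scale. With quantile normalization none was called higher, with library totals 1 was (and 1 lower), and without NAC 1 or NAC 2 also 1. None was called lower by limma, 1 was lower at an unadjusted p under 0.05, and voom called that gene, Eefsec, the carrier of selenocysteine tRNA, which is named after its values were seen. Eef2, which moves the ribosome along the mRNA, had 916, 928 and 907 FPKM in NAC and 744, 763 and 744 FPKM in Control (log2 difference 0.29 ± 0.0322 SE, adjusted p = 0.00392, limma). Eef1a1, which delivers charged tRNA, was higher by 0.25 (adjusted p = 0.0108), a call lost without NAC 1 (0.0596) or NAC 2 (0.0672), with no filter on low values (0.141), and with library totals (log2 difference 0.07) or quantile normalization (0.0088). Eef1g, a subunit of its exchange factor, was higher by 0.20 (adjusted p = 0.0257), but lower by quantile normalization (-0.04) and not called there; its call held in 6 of the 16 alternative settings, and when Control 2 was left out but not when any other library was. With library totals the log2 difference of Eef1g was 0.03, not called. Eef2 lost its call under quantile normalization (log2 difference 0.06) and kept it with library totals at a log2 difference of 0.12.

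Upstream of charging, none of 17 genes of tRNA export, end processing and modification was called by limma, with a median of -0.11; 3 were lower at an unadjusted p under 0.05, and voom called 2 lower (Ssb and Trmt1). The list's most abundant member Ssb, the La protein that binds new RNA polymerase III transcripts, had a log2 difference of -0.23 (adjusted p = 0.0714). Xpot, the exporter of tRNA from the nucleus, had 0.04 (adjusted p = 0.610). None of 21 RNA polymerase III genes was called either (median -0.04), with 3 lower and 1 higher at an unadjusted p under 0.05 and 1 called lower by voom (Polr3a). Their repressor Maf1 had -0.06 (adjusted p = 0.406). Of 21 mitochondrial charging helpers and translation factors none was called (median -0.11), with 4 lower at an unadjusted p under 0.05 and 1 called lower by voom (Mrrf). Of all tested genes 11.9% were lower and 14.4% higher at an unadjusted p under 0.05, and voom called 4.15% lower. Below 0 lay 14 of the 17 tRNA export, processing and modification genes and 16 of the 21 RNA polymerase III genes. Of the 21 mitochondrial helpers and factors 18 lay below 0, beside 51.5% of all tested genes. A lean below 0 was thus not particular to the synthetases. Trmt1, Polr3a and Mrrf were named after their values were seen. Tufm, the mitochondrial counterpart of the factor that delivers charged tRNA, had 0.03 (adjusted p = 0.717).

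In the GCN2 arm, which senses uncharged tRNA, 1 of 12 genes was called lower and none higher (median 0.0011), as with voom. Of all tested genes 2.72% were called lower and 6.08% higher by limma. At an unadjusted p under 0.05, 3 of the 12 were lower and none higher, beside 11.9% and 14.4% of all tested genes. Atf4 itself had 144, 139 and 151 FPKM in NAC and 152, 165 and 156 FPKM in Control, apart but not called (log2 difference -0.13, adjusted p = 0.146). Atf5, a related factor whose translation is raised by the same pathway, had 89.1, 90.2 and 77.4 FPKM in NAC and 105, 99.9 and 112 FPKM in Control (log2 difference -0.30, adjusted p = 0.0473, limma). When 1 library was left out, this call held only without Control 2. With library totals the difference was -0.48, where the median of all tested genes was -0.16. Among 18 ATF4 targets of amino acid supply 7 rose and none fell, with a median of 0.22 (3 were lower at an unadjusted p under 0.05, and voom also called 7 higher and none lower), beside 6.08% of all tested genes called higher and 2.72% called lower. With library totals 4 were called higher and 3 lower, where 3.67% and 29.2% of all tested genes were, and quantile normalization called 1 lower. The count called higher was 3 without NAC 1 or NAC 2, and 4 without Control 1, without Control 3 or with eBayes without trend. Slc38a2, an importer of neutral amino acids, was higher by 0.28 (adjusted p = 0.00358), Slc1a5, an importer of glutamine, by 0.46 (adjusted p = 0.00547) and Psat1, of serine synthesis, by 0.68 (adjusted p = 0.00930). Rescaling to library totals left Slc38a2 at 0.11 and Slc1a5 at 0.30, and by quantiles Slc38a2 was at 0.17, all still called. Asns, which makes asparagine and is an ATF4 target like Nars, had 29.3, 29.2 and 27.3 FPKM in NAC and 27.1, 29.8 and 25.9 FPKM in Control, which overlapped (log2 difference 0.05, adjusted p = 0.630). No test of the difference between this list and the synthetases listed as ATF4 targets was made.

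**Figure D5:**
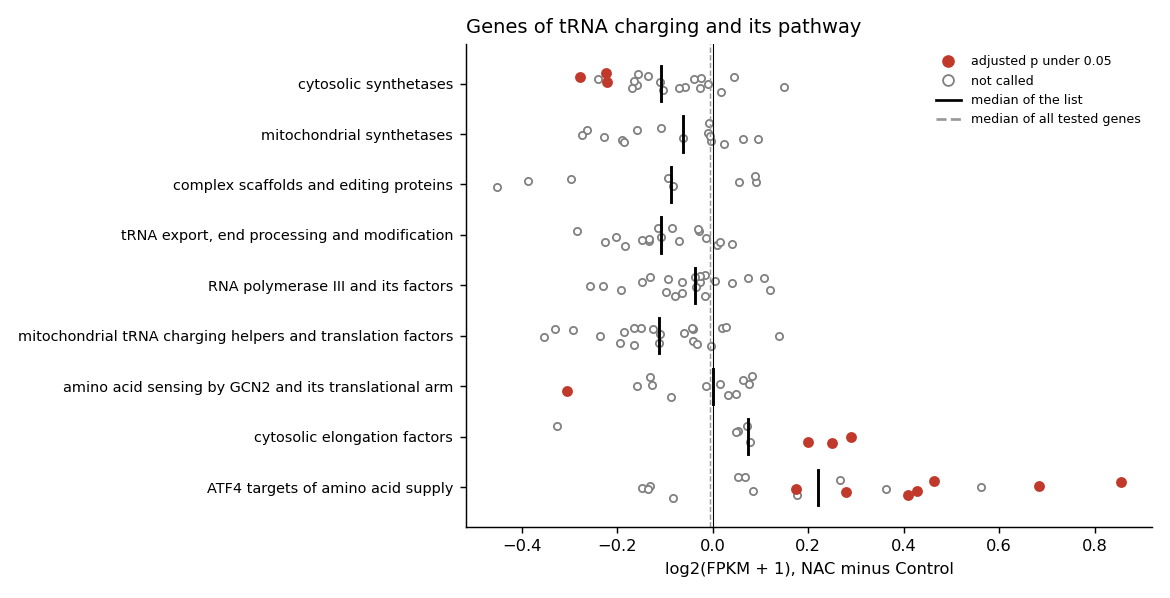
Difference in log2(FPKM + 1), NAC minus Control, for each tested gene of 9 lists of the charging pathway; red marks adjusted p under 0.05, open symbols genes not called, black bars the median of a list and the dashed line the median of all tested genes. Called genes lie below 0 among cytosolic synthetases and the GCN2 arm, and above 0 among elongation factors and ATF4 targets of amino acid supply.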

How the data were processed

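The authors deposited 1 table of FPKM values for 6 libraries. The NAC columns carry their sample's name, and the columns N1 to N3 were taken as Control 1 to 3 by elimination. Kits were an RNeasy kit for RNA and a SMARTer mRNA-Seq kit for libraries, per the labels' protocols. No source used here gives the aligner, counter, strand setting or annotation. Per the submitters' processing notes the builds were those of mouse (GRCm38 and mm10), although the identifiers are rat ones.

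Multiplied by gene length, 100% of the values were whole multiples of 1 step per library within 0.01. This gave the reads and library totals, with 3 reads as the floor. The test was limma 3.58.1 in R 4.3.3 (lmFit, eBayes with trend, two-sided, group only) on log2(FPKM + 1), over the 12733 genes whose mean FPKM reached 1. P-values were adjusted over all of these by Benjamini-Hochberg, with a threshold of 0.05. A log2 difference with this pseudocount understates the change of low genes. The script was tested on simulated data.

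Members and lists were chosen with earlier results of these data known. All 36 members are named. From each list of other genes the rule took up to 3 called genes with the lowest adjusted p, or the most abundant gene where none was called. It added Xpot, Aimp1, Aimp2, Eef1e1, Atf4 and Asns. The Ears2 gene was told from its pseudogene row by biotype. Lists were described by counts and medians only. Replicate pairs were compared before averaging, and since each differed beyond counting noise (chi-square of reads per degree of freedom 3.46 to 8.71, highest with Control 2), none was merged. Promoters came from RefSeq (GRCr8), and motifs were sought on both strands; 1 promoter sequence is not reported here. Python 3.11.15 was used with pandas 2.3.3, numpy 2.4.6 and matplotlib 3.10.9. Alternatives were a pseudocount of 0.1, a minimum mean of 5 FPKM or none, rescaling by median of ratios, by library totals or by quantiles, eBayes robust or without trend, limma voom on recovered reads, the replicate number as a block, a threshold of 0.01 and leaving out each library.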

Additional observations from a re-analysis of the deposited data

How the results depend on the processing

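No cytosolic or mitochondrial synthetase was called higher under any of the 17 alternatives. The 3 cytosolic genes called lower became 1 with no filter, 17 with library totals (where 29.2% of all tested genes were called lower), 0 without trend and 0 at an adjusted p under 0.01, and 0 to 1 when 1 library was left out; with a mean FPKM of at least 5 and with voom they were 4, with Wars as the added gene. The 5 mitochondrial genes called lower with library totals were Hars2, Sars2, Tars2, Wars2 and Yars2. With library totals the cytosolic median was -0.28 and the mitochondrial one -0.20. The mitochondrial median was -0.0797 with no filter, -0.00726 at a mean FPKM of at least 5 (7 genes left), -0.0786 with voom and -0.0975 to -0.0365 when 1 library was left out. At a mean FPKM of at least 5 the median of all tested genes was -0.00645. With library totals the sign turned for Gars (-0.15), Eprs (-0.0212), Qars (-0.13), Iars2 (-0.10), Lars2 (-0.12), Nars2 (-0.0380), Eef1e1 (-0.0589), Xpot (-0.13), Tufm (-0.14) and Asns (-0.12), along with a shift of all genes to a median of -0.16. With quantile normalization it turned for Gars (-0.0131), Cars2 (0.000468), Vars2 (0.00496) and Eef1g (-0.0402). Leaving out 1 library turned the sign of 9 members close to 0: Gars (-0.0116 to 0.0330), Kars (-0.0610 to 0.000227), Dars (-0.0860 to 0.00914), Yars (-0.0734 to 0.0610), Cars2 (-0.0760 to 0.0608), Lars2 (-0.0165 to 0.0608), Fars2 (-0.0975 to 0.0647), Vars2 (-0.0653 to 0.0354) and Ears2 (-0.0727 to 0.0704). The cause was not tested for any of these, other than the fewer samples or genes that a setting leaves. Deviations of same-numbered libraries from their group means had correlations of 0.0627, 0.0589 and -0.0502 over all tested genes. The labels do not say whether these libraries were paired, and such correlations cannot exclude it. With the replicate block 1 cytosolic gene, Rars, was called lower and no mitochondrial one. Read numbers limit the lowest genes: Mars2, with 2 to 8 reads a library, was below the minimum level of the test and entered it only with no filter, where it was not called.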

Other observations

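Tarsl2, a second gene for threonine that stood outside the 36 names and was counted in the list of scaffolds and editing proteins, had 2.46, 2.81 and 2.78 FPKM in NAC and 2.70, 3.04 and 3.06 FPKM in Control, which overlapped (log2 difference -0.09, adjusted p = 0.557, limma). It was named after its values had been seen. Kars and Aars lie on the same chromosome with 29 genes between them, and of the pair only Aars was called.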
